A study of Mus musculus with 8 samples.

Results

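The proteins of the cytosolic ribosome were followed through 124 of the 45037 probe sets tested, chosen by name alone: a probe set entered when it carried a single gene symbol that begins with Rpl or Rps and a digit, or is *Rplp0*, *Rplp1*, *Rplp2* or *Rpsa*, leaving out the ribosomal S6 kinases, whose symbols begin with Rps6k. The 124 probe sets carry 60 symbols, of the 19761 symbols in the table. They comprise 28 proteins of the large subunit with 60 probe sets and 22 of the small subunit with 50. A further 7 symbols are paralogs of ribosomal proteins, 2 are pseudogenes, and *Rps19bp1* matches by name but encodes a protein that binds Rps19 and is no part of the ribosome. *Rpsa* had no probe set of its own. Another 109 probe sets list a ribosomal protein beside other symbols and were kept out, because their signal cannot be given to 1 gene.

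The arrays measured cerebral cortex of untreated male mice of 2 strains, SAMP8, which is senescence-accelerated, and SAMR1, its senescence-resistant control, at 1 year and at 16 weeks, with 2 arrays in each of the 4 groups. The strains are inbred lines and not a single induced mutation, so a strain difference can come from any locus at which they differ. SAMP8 arrays were grouped by their titles, since their genotype field holds the name SAMR8. The study states 2 mice for each age and does not tie arrays to mice, so every p-value here refers to the spread between arrays, which may in part be technical. Aging was compared at 1 year against 16 weeks, as accelerated aging in SAMP8 and as physiological aging in SAMR1. The strains, SAMP8 against SAMR1, were compared at 16 weeks (early events) and at 1 year (late events). Each group enters 2 of these comparisons, so accelerated aging and early events share the SAMP8 arrays of 16 weeks.

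Each ribosome holds 1 copy of nearly every ribosomal protein, and cells make these proteins in matched amounts, degrading the surplus. Their messages are among the most abundant in any cell, and in vertebrates nearly all begin with a terminal oligopyrimidine (TOP) tract, an unbroken run of C and T at the start of the message through which the mTOR pathway sets how actively they are translated. Neurons use ribosomes for protein synthesis in the cell body and in dendrites and axons, and a few ribosomal proteins also act outside the ribosome, such as *Rpl5* and *Rpl11*, which bind Mdm2 and restrain it from degrading p53. An array reads the amount of message, not its translation.

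The starts of 8 transcripts of genes described below are printed with 10 bases before and 20 bases from the annotated start, read 5′ to 3′ from RefSeq's annotation of GRCm38.p6, and with the longest run of C and T in capitals. They are shown so that some of the members with a called age or strain difference can be set beside *Rps27*, whose paralog *Rps27l* was among them. Other called members, such as *Rpl13* and *Rps20*, are not printed.
Rps18, chr17:33955646-33955675, minus strand: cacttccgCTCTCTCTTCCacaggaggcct
Rps27, chr3:90213629-90213658, minus strand: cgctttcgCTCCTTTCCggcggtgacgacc
Rps27l, first start, chr9:66946076-66946105, plus strand: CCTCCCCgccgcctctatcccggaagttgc
Rps27l, second start, chr9:66946403-66946432, plus strand: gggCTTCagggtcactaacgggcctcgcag
Rps6, chr4:86857348-86857377, minus strand: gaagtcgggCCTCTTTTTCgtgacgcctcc
Rpl22l1, chr3:28805498-28805527, plus strand: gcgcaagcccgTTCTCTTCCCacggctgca
Rpl27, chr11:101442235-101442264, plus strand: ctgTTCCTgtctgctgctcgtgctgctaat
Rpl27a, chr7:109519185-109519214, plus strand: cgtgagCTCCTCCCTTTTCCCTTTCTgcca

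The run spans the annotated start in *Rps18*, *Rps27*, *Rps6* and *Rpl27a* and begins just after it in *Rpl22l1*, while in *Rpl27* and at both starts of *Rps27l* it lies wholly before the start. Within 25 bases of the start on either side, the longest run had 20 bases in *Rpl27a*, 11 in *Rps18*, 10 in *Rps6* and *Rpl22l1*, 9 in *Rps27*, 9 and 5 at the 2 annotated starts of *Rps27l*, and 5 in *Rpl27*. Of the 60 symbols, 46 had an entry in the promoter table. Over the 44 entries of the 39 proteins of either subunit that were found, the median of this longest run was 8 bases, against 5 over all 32851 promoters. A run of at least 8 bases was present in 22 of the 44 entries (50%), against 19.7% of all promoters. The letters CCGGAAG, on either strand of the 300-base promoter window, were present in 18 of the 44 (40.9%), against 8.86% of all. Both measures were chosen after the sequences were seen, and annotated starts may lie some bases away from the start used in cortex.

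Ribosomal protein messages were bright on these arrays. Signals are log2 values from robust multichip analysis (RMA), so a difference of 1 is a doubling of signal. A mean log2 signal of at least 10 over the 8 arrays was reached by 56 of the 124 probe sets (45.2%), against 1.18% of all probe sets, and 25 (20.2%) lay below 5, against 60.4% of all. *Rps29*, a zinc-binding protein of the small subunit, was brightest at a mean log2 signal of 11.99. The lowest mean was 2.74, in the single probe set of *Rps16* among others. Levels of different probe sets cannot be compared as amounts of message, because probes differ in affinity. For 32 of the 60 symbols the array held several probe sets, up to 6 for *Rpl35*, and these serve below to show how far a change holds across a transcript. Where a gene is given by 1 value, it is that of its brightest probe set.

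Within groups the members were tight. The SD of a member within a group had a median of 0.04 on the log2 scale, and the median standard error of a log2 fold change was 0.07 in each of the 4 comparisons. Over all probe sets, arrays correlated at 0.995 to 0.9981 within groups and at 0.99 to 0.9962 between groups. The nonspecific control probe sets with 20 to 24 G or C bases read 3.14 to 3.18 at 1 year, against 3.26 to 3.42 at 16 weeks, without overlap. Cortical neuron markers averaged 9.82 to 10.01 on all arrays. Thalamus markers averaged 7.02 and 6.47 in SAMR1 at 16 weeks, against 6.12 to 6.39 elsewhere, and hypothalamus markers averaged 4.56 and 4.6 on the same arrays, against 3.89 to 4 elsewhere. Oligodendrocyte markers averaged 9.1 and 9.08 on those arrays, against 8.76 to 8.9 elsewhere, and striatum markers averaged 6.88 on replicate 1 of SAMR1 at 16 weeks, against 7.87 to 8.18 elsewhere. The olfactory bulb markers averaged 6 and 5.84 in 1 SAMP8 array of each age, against 4.73 to 4.91 elsewhere. The 8 choroid plexus markers averaged 4.25 and 4.34 in SAMP8 at 16 weeks and 4.29 on 1 SAMR1 array of 16 weeks, against 4.79 to 5.11 elsewhere, and all 8 had a log2 fold change above 0 in both aging comparisons without a call. The part of these differences in the results below was not tested, and in whole tissue fewer cells of a type and less RNA per cell cannot be told apart.

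In physiological aging most ribosomal protein messages moved little, and a few probe sets moved in either direction. In SAMR1 at 1 year, 3 member probe sets were higher than at 16 weeks and 5 were lower at an adjusted p under 0.05 (limma, Benjamini-Hochberg over all probe sets tested), 6.45% of the members against 5.48% of all probe sets (2.63% higher and 2.85% lower). The risers were probe sets of *Rpl27a*, *Rpl27* and *Rps20*, and the fallers included all 3 probe sets of *Rps27l* and 1 of *Rps18*. The median log2 fold change over the 60 genes was 0.01, against −0.03 over all 19761 genes. Of the 50 proteins of the 2 subunits, 46 had a log2 fold change between −0.2 and 0.2. Without either SAMR1 array of 1 year no member was called, against 0.0422% and 0.164% of all probe sets, and a fit to just the 4 SAMR1 arrays called none, while 5 to 9 members were called without any one of the other arrays, against 2.71% to 5.35% of all probe sets.

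In accelerated aging the median lay above 0, and calls were made in both directions. In SAMP8 at 1 year, 5 member probe sets were higher than at 16 weeks and 4 were lower, 7.26% of the members against 5.07% of all probe sets (2.26% higher and 2.8% lower). The split depended on the setting, with 21 higher and 6 lower under a variance trend with robust moderation (6.54% of all probe sets called), 22 higher and 1 lower among the 56 members of a mean signal of at least 10 (26.3% of all such probe sets), and 3 higher and 6 lower after each array was centred on its median (5.58%). *Rpl13* and *Rpl22l1* joined *Rpl27a*, *Rpl27* and *Rps20* among those that rose, and *Rps19bp1* joined *Rps18* and 2 probe sets of *Rps27l* among those that fell. The median log2 fold change over the 60 genes was 0.09, against −0.02 over all genes, and 41 of the 60 lay above 0. The large subunit had a median of 0.10, with 20 of 28 genes above 0, and the small subunit had 0.11, with 17 of 22 above 0. At an unadjusted p under 0.05, 33 member probe sets were higher and 12 were lower, 36.3% of the members against 23.2% of all probe sets (11.1% higher and 12.1% lower). The same count in physiological aging was 9 higher and 16 lower, 20.2% against 23.5% of all (11.1% higher and 12.4% lower). Of the 9 calls in accelerated aging, 6 were called in physiological aging too, and all 6 in the same direction, which is 66.7% of the calls in accelerated and 75% of those in physiological aging. Over all probe sets 944 were called in both, 41.3% of the calls in accelerated and 38.3% of those in physiological aging, and 929 of them in the same direction. No member was called without either SAMP8 array of 1 year or without replicate 2 of SAMP8 at 16 weeks, where 0.0111% to 0.0511% of all probe sets were called. Without replicate 1 of SAMP8 at 16 weeks or either SAMR1 array of 1 year 4 were called, against 1.81% to 1.9% of all probe sets, and without either SAMR1 array of 16 weeks 10, against 8.15%.

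*Rps27l* gave the same picture from every probe set. Its protein is a close paralog of Rps27 and its gene is known as a target of p53 in human and mouse cells. Its brightest probe set read 7.05 and 7.09 in SAMP8 at 1 year, against 7.42 and 7.42 in SAMP8 at 16 weeks. In SAMR1 it read 6.99 and 7.04 at 1 year, against 7.44 and 7.50 at 16 weeks. All 4 arrays of 1 year lay below all 4 of 16 weeks. The log2 fold change was −0.46 ± 0.06 (SE) in physiological aging (adjusted p = 0.0105, limma) and −0.35 ± 0.06 in accelerated aging (adjusted p = 0.0224, limma). The other probe sets fell by 0.55 (adjusted p = 0.0118, limma) and 0.54 (adjusted p = 0.0144, limma) in physiological aging. In accelerated aging one of them fell by 0.39 (adjusted p = 0.0304, limma), and the other had −0.34 at an adjusted p of 0.0523 (limma). The single probe set of *Rps27* alone was dim, with a mean log2 signal of 4.68, and its log2 fold changes were −0.16 in accelerated and −0.12 in physiological aging, neither called. A bright probe set that also lists *Rps27rt*, at a mean of 10.37, gave 0.08 in accelerated and −0.09 in physiological aging. Leaving out any one array kept the log2 fold change of the brightest probe set between −0.49 and −0.43 in physiological aging and between −0.37 and −0.33 in accelerated aging. An array of the strain not compared cannot move a fold change, only its error. The call was lost without either SAMR1 array of 1 year in physiological aging. In accelerated aging it was lost without any one SAMP8 array, and also without either SAMR1 array of 1 year. Of the 3 probe sets of *Rps27l*, 2 have IDs ending in x_at, the array maker's mark for probes that can also match other transcripts. The called probe sets of *Rps18*, *Rpl27* and *Rpl13a*, and the bright called one of *Rps20*, end in x_at too.

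*Rps18*, a small subunit protein whose message is widely used as a reference in quantitative PCR, gave different changes from its probe sets. Its brightest probe set read 9.76 and 9.71 in SAMP8 at 1 year, against 10.16 and 10.08 in SAMP8 at 16 weeks. In SAMR1 it read 9.61 and 9.54 at 1 year, against 10.06 and 10.11 at 16 weeks. The ages did not overlap in either strain. The log2 fold change was −0.51 ± 0.06 (SE) in physiological aging (adjusted p = 0.00992, limma) and −0.39 ± 0.06 in accelerated aging (adjusted p = 0.0212, limma). A second probe set, with a mean log2 signal of 9.76, gave −0.25 in physiological and −0.21 in accelerated aging, neither called. Another, at 8.59, gave 0.08 and 0.15 in the same order, and the dimmest pair lay between −0.08 and 0.09. The call rests on 1 of 5 probe sets, an x_at probe set. It was lost without either SAMR1 array of 1 year in physiological aging, and without any one SAMP8 array in accelerated aging.

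The largest rise among the members belonged to 1 probe set of *Rpl27a*, a large subunit protein. It read 8.78 and 8.75 in SAMP8 at 1 year, against 7.92 and 7.32 in SAMP8 at 16 weeks, and 8.86 and 8.78 in SAMR1 at 1 year, against 7.80 and 7.49 in SAMR1 at 16 weeks. The arrays of 1 year were high and close together, and those of 16 weeks were low and spread. The log2 fold change was 1.17 ± 0.17 (SE) in physiological aging (adjusted p = 0.0143, limma) and 1.14 ± 0.17 in accelerated aging (adjusted p = 0.0184, limma). The brightest probe set of the gene, with a mean log2 signal of 10.6, gave 0.01 in physiological and 0.10 in accelerated aging, and the remaining dim one gave 0.16 and 0.13. Leaving out any one array kept the rise of the called probe set between 1.02 and 1.33 in physiological aging and between 0.84 and 1.44 in accelerated aging. The call was lost without either array of 1 year of the strain compared. In accelerated aging it was also lost without replicate 2 of SAMP8 at 16 weeks. The change of the brightest probe set, not the large one, enters the medians above.

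*Rpl27*, also of the large subunit, rose in both strains through its brightest probe set. It read 9.46 and 9.42 in SAMP8 at 1 year, against 8.95 and 8.91 in SAMP8 at 16 weeks. In SAMR1 it read 9.41 and 9.40 at 1 year, against 9.04 and 9.13 at 16 weeks. The ages were apart in both strains, by 0.51 ± 0.06 (SE) on the log2 scale in accelerated aging (adjusted p = 0.0126, limma) and 0.32 ± 0.06 in physiological aging (adjusted p = 0.028, limma). Its second probe set gave 0.14 in accelerated and 0.11 in physiological aging, in the same direction but not called. A probe set that also lists *Rpl27-ps1*, at a mean of 8.44, rose by 0.35 in accelerated aging (adjusted p = 0.045, limma). In physiological aging it gave 0.28 (adjusted p = 0.0754, limma). Without any one array the brightest probe set gave 0.49 to 0.53 in accelerated aging and 0.27 to 0.36 in physiological aging. Its call in accelerated aging was lost without either SAMP8 array of 1 year or replicate 2 of SAMP8 at 16 weeks. In physiological aging it was lost without any one array of 1 year or replicate 1 of SAMR1 at 16 weeks.

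*Rps20*, of the small subunit, rose through its second brightest probe set, which read 10.42 and 10.30 in SAMP8 at 1 year, against 10.12 and 9.97 in SAMP8 at 16 weeks. In SAMR1 it read 10.49 and 10.45 at 1 year, against 10.15 and 10.16 at 16 weeks. The log2 fold change was 0.32 ± 0.07 (SE) in accelerated aging (adjusted p = 0.0495, limma) and 0.31 ± 0.07 in physiological aging (adjusted p = 0.048, limma), so both calls lay at the edge of the threshold. Each was lost without any one array of the strain compared, and also without either array of 1 year of the other strain. The brightest probe set gave 0.18 in accelerated and 0.13 in physiological aging, and the dim pair lay between −0.16 and 0.08.

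Of the remaining calls in accelerated aging, *Rpl13* of the large subunit read 10.80 and 10.72 in SAMP8 at 1 year, against 10.38 and 10.25 at 16 weeks, a rise of 0.45 ± 0.07 (SE) on the log2 scale (adjusted p = 0.0209, limma). Its brighter probe set gave 0.16. *Rpl22l1*, the paralog of *Rpl22* and a gene that Rpl22 represses in mouse cells, read 10.02 and 9.99 in SAMP8 at 1 year, against 9.73 and 9.70 at 16 weeks, a rise of 0.29 ± 0.07 (adjusted p = 0.0448, limma). *Rpl22* itself had no probe set of its own. *Rps19bp1*, which is also known as an activator of the deacetylase Sirt1, read 5.99 and 5.99 in SAMP8 at 1 year, against 6.27 and 6.29 at 16 weeks, a fall of 0.29 (adjusted p = 0.0358, limma). In physiological aging these 3 probe sets gave 0.29 for *Rpl13* (adjusted p = 0.0597, limma), 0.17 for *Rpl22l1* and −0.06 for *Rps19bp1*. In accelerated aging the call of *Rpl13* was lost without either SAMP8 array of 1 year or replicate 2 of SAMP8 at 16 weeks. Those of *Rpl22l1* and *Rps19bp1* were lost without any one SAMP8 array, and also without either SAMR1 array of 1 year.

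**Figure D1:**
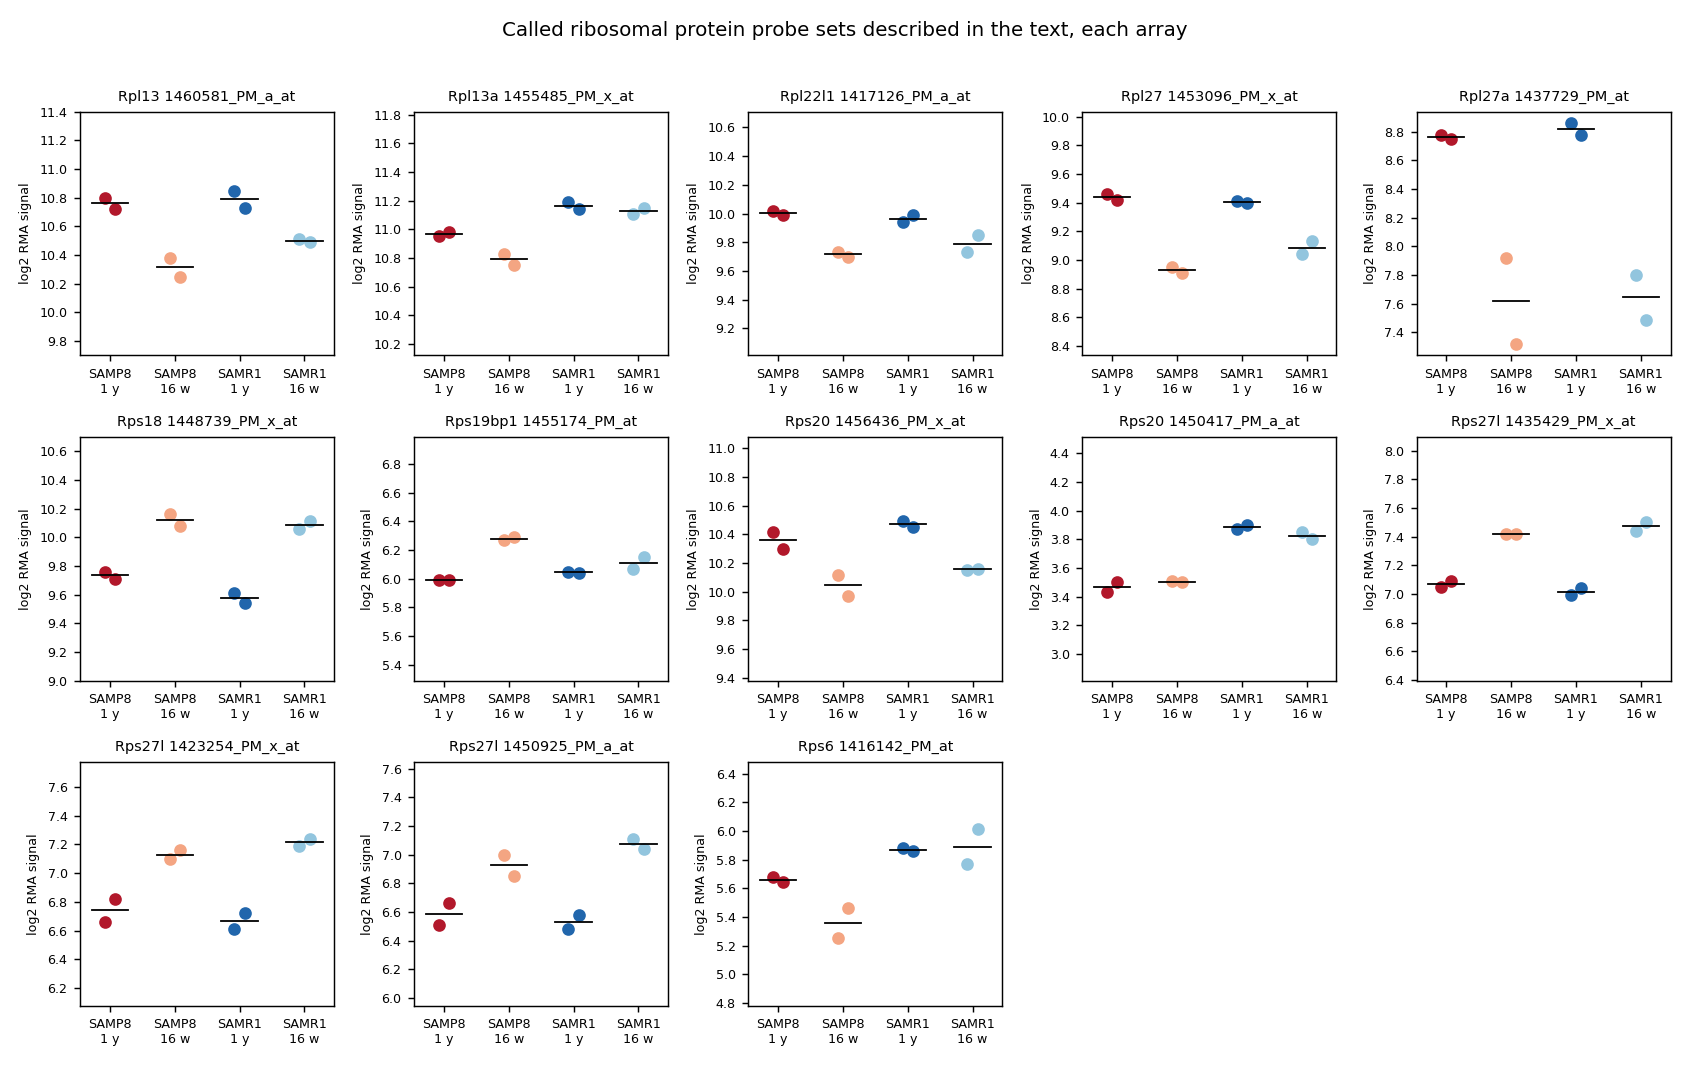
The log2 RMA signal of each array (points) and the group mean (lines) for 13 member probe sets, of 10 symbols, called in at least 1 of the 4 comparisons and described in the text; every panel spans the same number of log2 units. The 3 probe sets of *Rps27l* are low at 1 year in both strains, while *Rps6* and *Rpl13a* are lowest in SAMP8 at 16 weeks. By group mean, *Rpl13*, *Rpl22l1*, *Rpl27*, *Rpl27a* and the bright probe set of *Rps20* are lowest there too.

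The array tells how often probe sets of 1 ribosomal protein gene moved alike. Over the 32 genes with several probe sets, the gap between the highest and the lowest log2 fold change had a median of 0.23 in accelerated aging and 0.18 in physiological aging, and reached 1.04 and 1.16 in *Rpl27a*. Between the strains the median gap was 0.09 in early events and 0.10 in late events. The called age changes measured 0.29 to 1.17 in size on the same scale. *Rps27l* had the smallest gap in accelerated aging, 0.05, together with *Rpl41* and *Rps28*, and a gap of 0.09 in physiological aging.

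**Figure D2:**
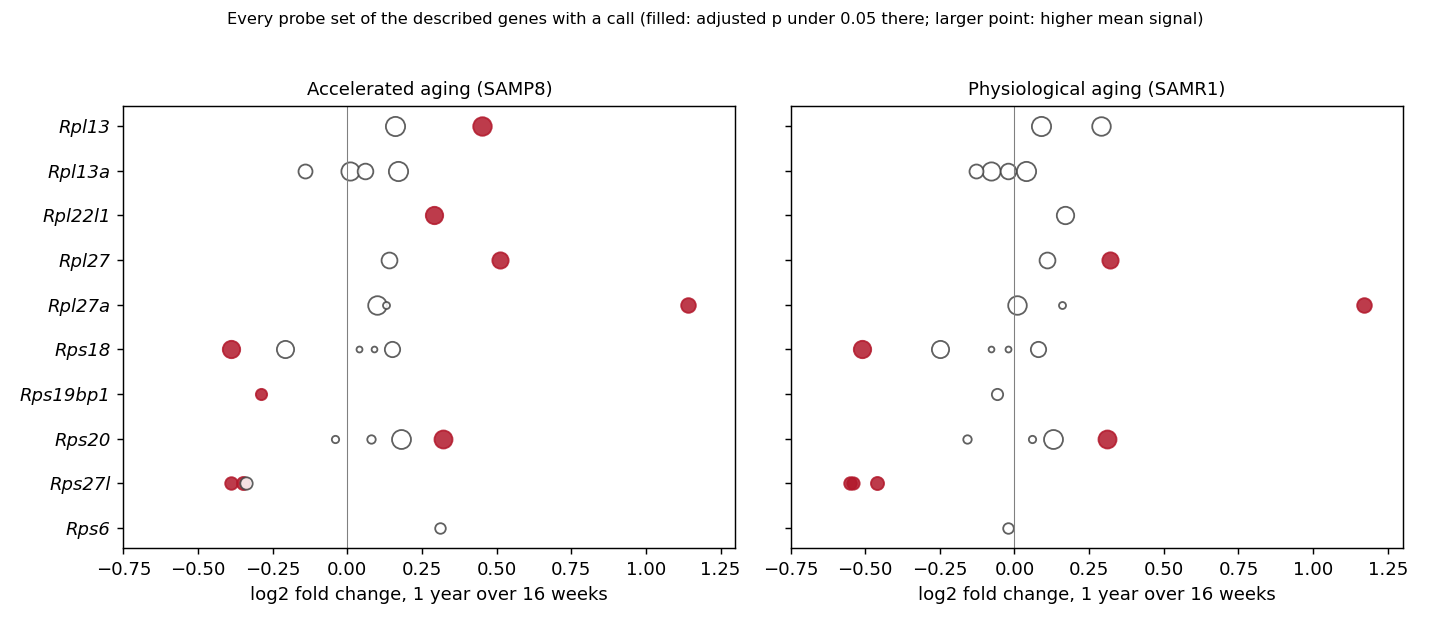
The log2 fold change of 1 year over 16 weeks for every probe set of the 10 described genes with a call, in accelerated aging (left) and physiological aging (right); filled points passed an adjusted p of 0.05 in that comparison and larger points have a higher mean signal. The probe sets of *Rps27l* lie together between −0.55 and −0.34, while those of *Rpl27a* span 0.01 to 1.17 and those of *Rps18* −0.51 to 0.15.

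In early events most ribosomal protein messages lay slightly below their SAMR1 level in SAMP8. Of the 124 member probe sets, 102 had a log2 fold change below 0 (82.3%), against 50% of all probe sets, and the median over the 60 genes was −0.06, against 0 over all genes. The large subunit had a median of −0.05, with 23 of 28 genes below 0, and the small subunit had −0.08, with 19 of 22 below 0. Single probe sets rarely passed the test: 2 were called, both lower, which is 1.61% of the members against 1.23% of all probe sets (0.708% higher and 0.522% lower). At an unadjusted p under 0.05, 3 were higher and 23 lower, 21% against 14% of all (6.99% higher and 6.98% lower).

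Those called were *Rps6* and *Rpl13a*. *Rps6*, the small subunit protein phosphorylated by the S6 kinases downstream of mTOR, had 1 probe set of its own, of moderate signal. It read 5.25 and 5.46 in SAMP8 at 16 weeks, against 5.77 and 6.01 in SAMR1 at 16 weeks, a log2 fold change of −0.53 ± 0.10 (SE; adjusted p = 0.0415, limma). At 1 year it read 5.68 and 5.64 in SAMP8, against 5.88 and 5.86 in SAMR1, and this difference of −0.21 was not called (adjusted p = 0.696, limma). The SAMP8 arrays lay below the SAMR1 arrays at both ages. Another 10 probe sets list *Rps6* beside a second symbol, the brightest at a mean log2 signal of 11.06. Their log2 fold changes in early events ran from −0.17 to 0.09, most of them below 0, without a call. The called lower level was thus seen by 1 probe set alone. *Rpl13a*, a large subunit protein that is also used as a reference in quantitative PCR, read 10.83 and 10.75 in SAMP8 at 16 weeks, against 11.11 and 11.15 in SAMR1 at 16 weeks. Its log2 fold change was −0.34 ± 0.06 (SE; adjusted p = 0.0451, limma), and its other probe sets gave −0.28, −0.14 and 0.06, none of them called. At 1 year the called probe set read 10.95 and 10.98 in SAMP8, against 11.19 and 11.14 in SAMR1. This difference of −0.20 was not called (adjusted p = 0.383, limma), and the other probe sets gave −0.19, −0.05 and 0.05 at 1 year. A bright probe set that also lists *Gm11478* gave −0.29 in early and −0.17 in late events, neither called. *Rpl36*, of the large subunit, had −0.38 ± 0.08 at an adjusted p of 0.0641 (limma) and was not called. Without replicate 1 of SAMR1 at 16 weeks 1 member, *Rps6*, was called, against 0.784% of all probe sets, and without any one of the other arrays none was, against 0.382% to 2.5%. In the same comparison 7 of 7 striatum markers lay above 0, with a median of 0.68. So did 5 of 6 olfactory bulb markers, with a median of 0.45, and 9 of 10 neuron markers, with 0.09. Of the thalamus markers 6 of 6 lay below 0, with a median of −0.49 and 1 called. Of the oligodendrocyte markers 7 of 8 lay below 0, with a median of −0.28 and 2 called, and of the hypothalamus markers 6 of 8, with 1 called. Over all genes 49.3% lay above 0, 48.8% lay below 0 and 1.07% were called. The part of these marker differences in the lower ribosomal protein values was not tested.

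In late events the members as a group were level between the strains again. The median log2 fold change over the 60 genes was 0.01, equal to that over all genes, and 61 member probe sets lay above 0 and 61 below. The 1 call, 0.806% of the members against 0.688% of all probe sets (0.362% higher and 0.326% lower), was the dimmest probe set of *Rps20*. It read 3.43 and 3.50 in SAMP8 at 1 year, against 3.87 and 3.90 in SAMR1, a log2 fold change of −0.42 ± 0.06 (SE; adjusted p = 0.0223, limma). At 16 weeks it read 3.51 and 3.50 in SAMP8, against 3.85 and 3.80 in SAMR1 (adjusted p = 0.0518, limma). The strain difference of this probe set was thus near the same size at both ages, while the 2 bright probe sets of *Rps20* gave −0.09 and −0.11 at 1 year. The call was lost without any one array of 1 year. At an unadjusted p under 0.05, 3 members were higher and 3 lower, 4.84% against 7.58% of all probe sets (3.54% higher and 4.03% lower).

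The difference of the age change between strains asked whether accelerated and physiological aging differed for a member. No member passed the test, and 3 had an unadjusted p under 0.05, 2.42% of the members against 6.92% of all probe sets (3.29% higher and 3.63% lower). These 3 were *Rps6* (0.33), *Rps19bp1* (−0.22) and the pseudogene *Rps15a-ps6* (0.37), each given as the log2 age change in SAMP8 minus that in SAMR1 and none below an adjusted p of 0.645 (limma). By the adjusted p, 0.00222% of all probe sets were called. The median over the 60 genes was 0.07, against 0 over all genes, and 51 of the 60 lay above 0. This median, the higher median of accelerated aging and the lower level in early events all use the SAMP8 arrays of 16 weeks and are not separate observations.

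The level of ribosomal protein messages was also read on each array. The median deviation of the 60 genes from their own means was 0.027 and 0.023 in SAMP8 at 1 year, against −0.020 and −0.069 in SAMP8 at 16 weeks. It was 0.014 and 0.013 in SAMR1 at 1 year, against −0.016 and 0.029 in SAMR1 at 16 weeks. Replicate 2 of SAMP8 at 16 weeks was the lowest of all, at −0.098 for the 36 genes with a brightest probe set of at least 10, while replicate 1 was close to a SAMR1 array of its age. Without replicate 2 the median of early events was −0.04, with 43 of 60 genes below 0, and that of accelerated aging was 0.06, with 40 of 60 above 0. Without replicate 1 they were −0.09, with 50 of 60 below 0, and 0.11, with 45 of 60 above 0. The median of the difference between strains was 0.05 without replicate 2 and 0.11 without replicate 1. Replicate 2 of SAMR1 at 16 weeks had the highest median over the 60 genes, 0.029 against 0.027 in replicate 1 of SAMP8 at 1 year. For the 36 bright genes it was not the highest, at 0.019 against 0.034 in replicate 2 of SAMP8 at 1 year. Without this SAMR1 array the median of early events was −0.03, with 44 of 60 genes below 0, and that of the difference between strains was 0.05. The direction was kept without any of these 3 arrays, at a smaller size without replicate 2 of either strain. Replicate 2 of SAMP8 at 16 weeks also had the lowest array median, 4.32 against 4.34 to 4.36 elsewhere, and the highest reading of nonspecific controls with 3 to 10 G or C bases, 2.34 against 2.24 to 2.26, and the part of these in the shift was not tested.

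**Figure D3:**
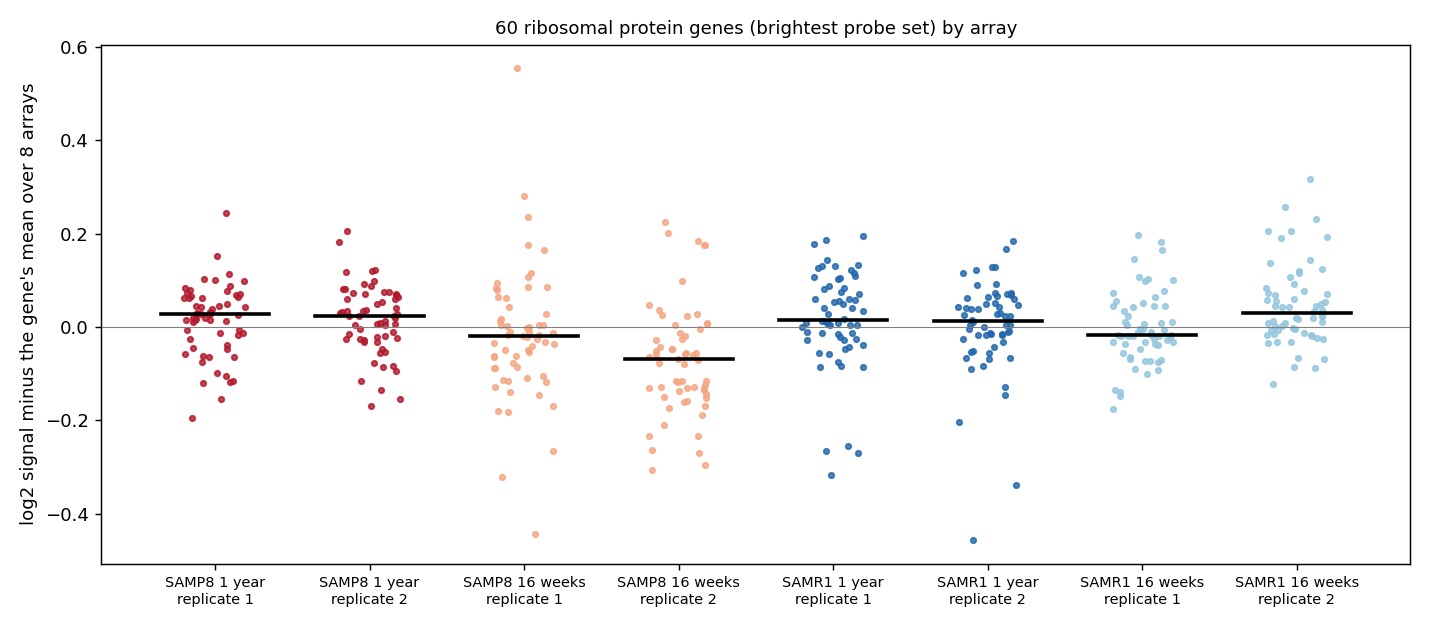
Each point is 1 of the 60 ribosomal protein genes on 1 array, as its log2 signal minus the gene's mean over the 8 arrays, and bars are array medians. The median of replicate 2 of SAMP8 at 16 weeks lies lowest at −0.069, and the medians of the other arrays lie between −0.020 and 0.029.

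**Figure D4:**
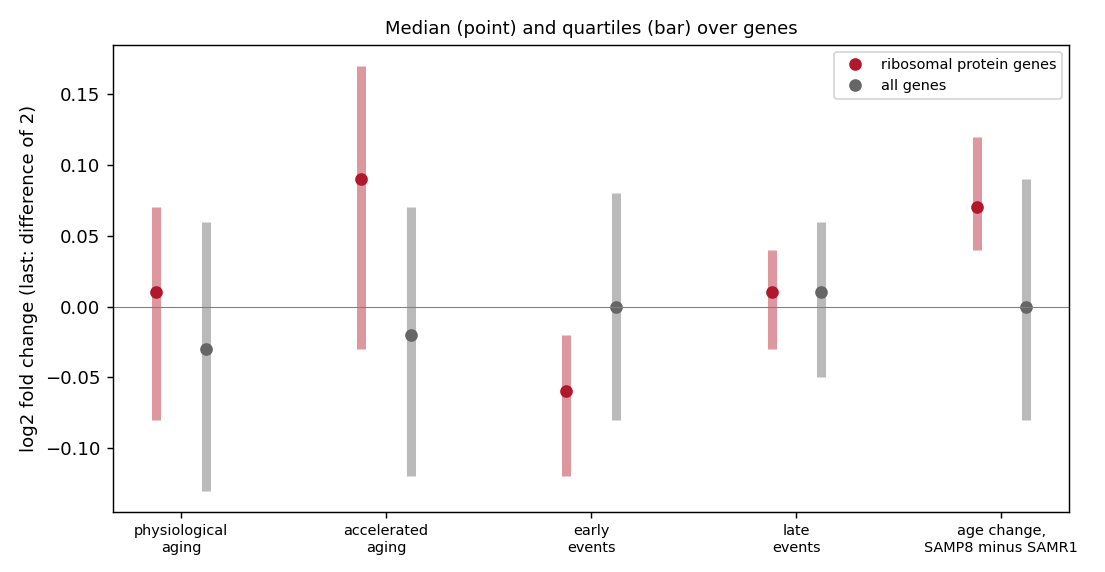
Median (points) and quartiles (bars) of the log2 fold change over the 60 ribosomal protein genes and over all genes, for the 4 comparisons and for the age change in SAMP8 minus that in SAMR1. The median of the ribosomal protein genes is 0.09 for accelerated aging, against −0.02 over all genes, and −0.06 for early events, against 0 over all genes.

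Members known for roles of their own moved little. The stalk proteins, which recruit the translation factors, gave log2 fold changes of −0.02 for *Rplp0*, −0.05 for *Rplp1* and −0.20 for *Rplp2* in physiological aging, and 0.03, −0.06 and −0.11 for the same genes in accelerated aging, none called. *Rplp0* read between 10.09 and 10.15 on all 8 arrays, the narrowest of the 3. For the Mdm2 binders, *Rpl5* gave 0.04 in accelerated and −0.03 in physiological aging, and *Rpl11* gave 0.18 and 0.13 in the same order. *Rpl38*, which in the mouse is needed for the translation of certain Hox messages, gave −0.12 in accelerated and −0.16 in physiological aging. *Rps19*, the protein most often mutated in Diamond-Blackfan anemia in humans, gave 0.06 and 0 in the same order, and *Rps25*, needed for internal initiation by certain viral RNAs, gave 0.17 and 0.05. *Rps4x* gave 0.20 and 0.11, and *Rpl36a* gave −0.01 and −0.10. None of these passed the test in any comparison.

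The paralogs were of mixed brightness. *Rpl36al* had a mean log2 signal of 9.4 and log2 fold changes from −0.08 to 0.01 over the 4 comparisons, and *Rpl7l1* had 5.98 and changes from −0.23 to 0.25. *Rpl39l*, known for its expression in the testis, was dim at 3.64. *Rpl3l*, a paralog of heart and skeletal muscle, was dim at 2.81. *Rps4l* was dim at 3.5 and read 4.05 and 3.72 in SAMP8 at 16 weeks, against 3.56 and 3.43 in SAMR1 at 16 weeks. At 1 year it read 3.54 and 3.45 in SAMP8, against 3.18 and 3.04 in SAMR1, and it differed by 0.38 and 0.39 between the strains and by −0.39 and −0.38 between the ages with none of them called. Of the 7 paralogs, *Rps27l* and *Rpl22l1* were called in a comparison and the other 5 in none.

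The genes around the ribosome were read from lists of textbook members, by the brightest probe set of each gene, for which 1.39% of all genes were called higher and 3.78% lower in physiological aging, 1.41% higher and 3.68% lower in accelerated aging, 0.552% higher and 0.516% lower in early events, and 0.319% higher and 0.299% lower in late events. Of 12 genes listed under translation elongation, *Eef1a2*, the elongation factor form of adult neurons, fell by 0.39 (adjusted p = 0.0387, limma) and *Eef1e1* fell by 0.33 in physiological aging. *Eef2k*, the kinase that inhibits elongation factor 2, rose by 0.32 in accelerated aging. Of 37 initiation genes, 1 rose and 2 fell in each aging comparison. *Eif4e2*, a cap-binding protein that represses translation, fell by 0.44 in accelerated and by 0.57 in physiological aging, and *Eif2b5*, the catalytic subunit of the eIF2B exchange factor, fell by 0.54 and by 0.39. The cap-binding protein *Eif4e* rose by 0.35 in physiological aging, and *Eif2a* rose by 0.45 in accelerated aging. Among ribosomal components with other names, *Gnb2l1*, which encodes Rack1 on the small subunit, fell by 0.28 in accelerated aging (adjusted p = 0.0369, limma) and by 0.33 in physiological aging (adjusted p = 0.0224, limma), while *Fau* was not called.

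Of 48 ribosome biogenesis genes, none rose in either aging comparison, 3 fell in accelerated aging and 1 in physiological aging. *Mrto4*, a factor in the assembly of the large subunit, read 6.50 and 6.49 in SAMP8 at 1 year, against 6.96 and 7 in SAMP8 at 16 weeks. In SAMR1 it read 6.65 and 6.60 at 1 year, against 7.01 and 7.01 at 16 weeks. It fell by 0.49 in accelerated aging (adjusted p = 0.0126, limma) and by 0.38 in physiological aging (adjusted p = 0.0147, limma). *Imp4* and *Utp14a*, of the machinery that processes the RNA of the small subunit, fell by 0.50 and 0.40 in accelerated aging, and *Imp4* was higher by 0.41 in SAMP8 at 16 weeks than in SAMR1 at 16 weeks (adjusted p = 0.0265, limma). Of 15 genes of RNA polymerase I and its factors, *Taf1d* fell by 0.48 in physiological aging and *Twistnb* rose by 0.38 in accelerated aging. None of 23 genes of the mTOR pathway and its control of TOP messages was called with age. *Deptor*, an inhibitor of mTOR, was lower by 0.72 on the log2 scale in late events, where it read 6.37 and 6.70 in SAMP8 at 1 year, against 7.23 and 7.28 in SAMR1 at 1 year (adjusted p = 0.0247, limma). Of 18 other TOP messages, *Hnrnpa1* rose by 0.33 in accelerated and by 0.35 in physiological aging, the host gene *Snhg8* rose by 0.36 and by 0.31, and *Snhg1*, another host gene of small nucleolar RNAs, fell by 0.72 in physiological aging (adjusted p = 0.0093, limma).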

How the data were processed

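RNA was extracted, labelled and hybridised by the authors to MG-430 PM array strips, and 8 arrays were used. Sources differ on the labelling kit (WT PLUS per the sample labels, 3′ IVT PLUS per the series text, 3′ IVT Express per the paper's methods), so the position of the signal along a transcript is not settled. The authors deposited log2 signals with 2 decimals, summarised by RMA in Expression Console. The submitters' processing notes list the Transcriptome Analysis Console, limma and RMA. The value table of the series held the same values (0 differed). Tables of the authors' own comparisons, which hold fold changes and p-values, were not used.

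Of 45077 probe sets, 40 controls were left out. limma 3.58.1 in R 4.3.3 was fitted to the 4 group means over 8 arrays (lmFit and eBayes, 4 residual and 4.5 prior degrees of freedom), with p-values adjusted by Benjamini-Hochberg over 45037 probe sets and called at 0.05. Every adjusted p is from this fit. No filter on signal was set. Control probe sets for RNA integrity along *Actb* and *Gapdh* were not analysed here. Dates stood in place of 64 symbols, which stayed unnamed. The script was tested on simulated data. Precision is limited by 2 arrays per group.

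The members and gene lists were chosen with earlier results of these data known. Named were up to 8 called rises and 8 called falls in each comparison, members called in the interaction, 30 names fixed by role (22 were members), genes with a call beside a probe set of opposite sign, and up to 3 called genes of each pathway list with the largest change. Of these, 1 called member is not reported here. Alternatives varied the samples, variance model, scaling, signal filter, threshold, test and membership.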

Additional observations from a re-analysis of the deposited data

How the results depend on the processing

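The counts of called members and their split by direction depended on the settings. A fit to just the 4 arrays compared called 5 members in accelerated aging (3.01% of all probe sets), 0 in physiological aging (0% of all probe sets) and 0 in early events (0.266%). Under a variance trend with robust moderation, accelerated aging had 27 calls (6.54% of all probe sets), physiological aging 17 (6.79%) and early events 4 (1.58%). With a fold above 1.1 and an unadjusted p under 0.05, limma called 45 members in accelerated aging and 25 in physiological aging. Early events had 26 calls, late events 6 and the difference of the age change between strains 3. The member counts were the same at this p without the fold threshold. In that order they were 36.3%, 20.2%, 21%, 4.84% and 2.42% of the members. The shares of all probe sets at this p were 23.2%, 23.5%, 14%, 7.58% and 6.92%. The methods' one-way test, at a fold above 1.1 and an unadjusted p under 0.05, called 19 in accelerated aging (11.1% of all probe sets) and 16 in physiological aging (10%). Among the strain comparisons it called 7 at 16 weeks (5%) and 5 at 1 year (4.36%), with 0 in each of the 4 after Benjamini-Hochberg adjustment. With probe sets of a mean signal of at least 10 alone, accelerated aging had 23 calls among 56 members (26.3% of 533 probe sets), early events 3 (6.38%) and late events 0 (0.75%). At a mean signal of at least 5, late events had 0 (1.23%). Array weights left 0 calls in early events (0.608%), and centring each array on its median left 1 (1.31%). With probe sets of several symbols added, accelerated aging had 18 calls among 233 probe sets (7.73%, against 5.07% of all) and a median of 0.06. Among the 71 members not ending in s_at or x_at accelerated aging had 4 calls (5.63%, against 5.07% of all probe sets) and a median of 0.04. There physiological aging had 3 calls (4.23%, against 5.48%) and early events 1 (1.41%, against 1.23%). The 110 probe sets of the subunit lists had 5 calls in accelerated aging (4.55%, against 5.07%) and 5 in physiological aging (4.55%, against 5.48%). Centring on the median gave a median of 0.06 in accelerated aging. The cause of these differences was not tested.

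Leaving out each array in turn gave 0 to 10 calls for accelerated aging, 0 to 9 for physiological aging, 0 to 1 for early and for late events, and 0 for the difference between strains. Medians ranged from 0.06 to 0.11 for accelerated aging, −0.01 to 0.05 for physiological aging, −0.10 to −0.03 for early events and 0 to 0.02 for late events. A lone array was assumed to vary like the other groups. No named result turned its direction while called.

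The replicate numbers did not pair the arrays: deviations of same-numbered arrays correlated at −0.09 to 0.20. With the replicate block, accelerated aging had 10 calls, 4 of them higher and 6 lower (5.57% of all probe sets), physiological aging 10 (5.99%), early events 1 (1.23%), late events 1 (0.757%) and the difference between strains 0.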

Other observations

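The ribosomal proteins of the mitochondria, which are encoded in the nucleus and build the separate ribosome that makes subunits of the respiratory chain, are a family apart from the members above. This family was chosen after its values were seen, so its values and the calls of its single genes are described, and the family was not tested as a set. Over 75 genes, by the brightest probe set of each, the median log2 fold change was −0.15 in accelerated and −0.15 in physiological aging, against −0.02 and −0.03 over all genes. In accelerated aging 62 of the 75 lay below 0, against 55.9% of all genes. At an adjusted p under 0.05 (limma) 13 were lower and 1 was higher, against 3.68% of all genes lower and 1.41% higher. In physiological aging 57 lay below 0, against 56.7% of all genes, and 7 were called lower, against 3.78%. In early and late events the medians were 0.04 and 0.04. The cytosolic medians in the same aging comparisons were 0.09 and 0.01, and without any one array the latter ran from −0.01 to 0.05. The difference between the families was not tested.

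The 109 probe sets that name a ribosomal protein beside other symbols had 8 calls higher and 1 lower in accelerated aging, against 2.26% of all probe sets higher and 2.8% lower, and 3 higher in physiological aging, against 2.63%. Those higher in accelerated aging included probe sets that list *Rps6*, at 0.43, 0.48 and 0.50, and *Rpl27*, at 0.35. In early events 90 of the 109 lay below 0, none called, and of the 124 members 102 lay below 0, with 2 called. Over all probe sets 50% lay below 0 and 1.23% were called. Both sets were read on the same arrays and name many of the same genes, so they are not separate observations.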
